A study of Homo sapiens with 16 samples.

Results

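The p53 binding sites that lie at promoters of protein-coding genes were described in MCF10A cells, an immortalized line of human mammary epithelium that does not form tumours, and in G12V cells. G12V cells are the same line after lentiviral introduction of HRAS carrying the G12V mutation, a constitutively active form of this small GTPase, with hygromycin selection of the transduced population. Chromatin immunoprecipitation followed by sequencing (ChIP-seq) was done with the DO-1 antibody against p53. Parental and G12V cells alike had received Nutlin-3a, a compound that blocks MDM2 and so stabilizes p53, before fixation, so that no sample shows p53 without this treatment. Each cell type had 2 libraries. Overlapping peaks of the 4 libraries (1 bp or more) were joined into sites, and a site was kept when it overlapped the stretch from 1000 bp upstream to 500 bp downstream of any coding start site, meaning the transcription start site of a protein-coding transcript. This gave 211 promoter sites among 2980 p53 sites. The other 2769 sites are called distal here, whether they lie in gene bodies or between genes. When start sites of every transcript of protein-coding genes were used, 284 sites qualified.

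p53 is a tetrameric transcription factor that binds a pair of adjacent decamers, each with a conserved C and G in its core. Under stress it raises transcription of genes for cell cycle arrest (CDKN1A, which encodes p21), apoptosis (BAX, BBC3, FAS), DNA repair (DDB2, XPC) and its own restraint (MDM2). Many of its best known response elements lie close to a start site or in the first intron, although most p53 binding across the genome is far from start sites. RAS signalling and p53 are known to meet in oncogene-induced arrest, which cells must bypass in order to grow with an active RAS.

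Response elements are shown first, because the motif within them is what many promoter sites share. In each line the 20 positions of the best match to the p53 motif are in capitals, with 5 flanking bases on either side in lower case, read 5′ to 3′ on the strand of the nearest gene. Coordinates are those of the capitals in hg19. The first 11 belong to sites called in 3 or 4 libraries, and the last 3 to sites of G12V only, of MCF10A only and of a single library.
CDKN1A (chr6:36644226-36644245, plus strand): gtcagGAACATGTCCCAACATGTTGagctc
MDM2 (chr12:69202703-69202722, plus strand): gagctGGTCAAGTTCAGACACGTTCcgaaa
RPS27L (chr15:63449434-63449453, minus strand): gtggcGGGCATGTAGTGACTTGCCCggtca
AEN (chr15:89164537-89164556, plus strand): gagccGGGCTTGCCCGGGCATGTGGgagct
BAX (chr19:49458470-49458489, plus strand): cccccGGGCAGGCCCGGGCTTGTCGcccgc
BBC3 (chr19:47734577-47734596, minus strand): cgcgcCTGCAAGTCCTGACTTGTCCgcggc
ACTA2/FAS (chr10:90751066-90751085, minus strand): tggctTGGCTTGTCAGGGCTTGTCCaggag
DDB2 (chr11:47236520-47236539, plus strand): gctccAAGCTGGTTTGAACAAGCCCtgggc
RPS19 (chr19:42364495-42364514, plus strand): gcgagCGGCAGGCCCGGACATGCCCggtca
PTCHD4 (chr6:48078934-48078953, minus strand): atgggAGGCTTGCCCAGACTTGCCCagtga
EDA2R (chrX:65858555-65858574, minus strand): tctgaGAACATGCCTGGACGTGTCCaacaa
LRP1 (chr12:57521595-57521614, plus strand): cgggcGGACAAGCTCCGGCGTGTCCcctcg
GASK1B (chr4:159092507-159092526, minus strand): agaaaTGACCTGTCCAGACAAGCCGgggca
APOBEC3H (chr22:39493296-39493315, plus strand): gcctcAGACAAGCAGGGGCAAGTCTgctaa

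The element of PTCHD4 matched the motif without a mismatch. Those of DDB2 and EDA2R had 1 mismatch, those of CDKN1A, MDM2, AEN, BAX, FAS and RPS19 had 2, and those of RPS27L and BBC3 had 3. Among the last lines, LRP1 and APOBEC3H had 2 mismatches and GASK1B had 3. With upstream positions negative, the centre of the element lay at -1 bp from the nearest coding start of CDKN1A, at -69 bp at MDM2 and at 294 bp at BAX. At the CDKN1A site this nearest start is an upstream alternative start, and the summit was at -2261 bp from the start of the gene's canonical transcript, the transcript that GENCODE marks as the main form. At MDM2 the summit was 792 bp downstream of the canonical start, inside the gene.

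The libraries differed in depth and in the length of their peak lists, which touches every count below. Solving the fold enrichment and the p-value of each peak for the reads behind them gave 21.4 and 20.1 M reads for the MCF10A libraries. It gave 9.26 M reads for G12V replicate 1, and 33.2 M reads for G12V replicate 2, whose peaks were called after scaling down to 23.9 M reads. The lists held 1718, 885, 477 and 2619 peaks for MCF10A replicates 1 and 2 and G12V replicates 1 and 2. The DNA fragment lengths that the caller used, read from the narrowest peak of each list, were 147 and 113 bp in MCF10A and 279 and 180 bp in G12V. The peak names of G12V replicate 1 carry the word "old", and whether this marks a separate batch is not given in the sources used here. Where a list has no peak, binding was not detectable at the depth of that library, which does not show the site to be free of p53. A lower enrichment could come from fewer cells with p53 bound or from less p53 bound per cell, which cannot be told apart.

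Promoters took a small part of the p53 peaks in every library. They held 73 of 1718 peaks in MCF10A replicate 1, which is 4.25% (95% exact binomial interval 3.35% to 5.31%). They held 49 of 885 peaks in MCF10A replicate 2, or 5.54% (4.12% to 7.25%). In G12V replicate 1 they held 44 of 477 peaks, or 9.22% (6.78% to 12.2%), and in G12V replicate 2 they held 203 of 2619, or 7.75% (6.76% to 8.84%). Both G12V shares were above both MCF10A shares. The mean was 4.89% ± 0.91 (SD, n = 2) in MCF10A and 8.49% ± 1.04 (SD, n = 2) in G12V, a difference of 3.59 percentage points. The exact two-sided permutation test gave p = 0.333, the smallest value that 2 libraries against 2 allow. The order was the same with every list cut to its 477 strongest peaks, with promoter shares of 4.40% and 6.29% for the MCF10A lists against 9.22% and 9.01% for the G12V lists.

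The number of promoter peaks varied more within G12V than between the cell types. It was 61.0 ± 17.0 (SD, n = 2) in MCF10A and 123.5 ± 112 (SD, n = 2) in G12V (exact permutation p = 1). The G12V values of 44 and 203 lay on either side of the MCF10A values, and the log2 ratio of G12V over MCF10A turned from 1.02 to -0.47 without G12V replicate 2.

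**Figure D1:**
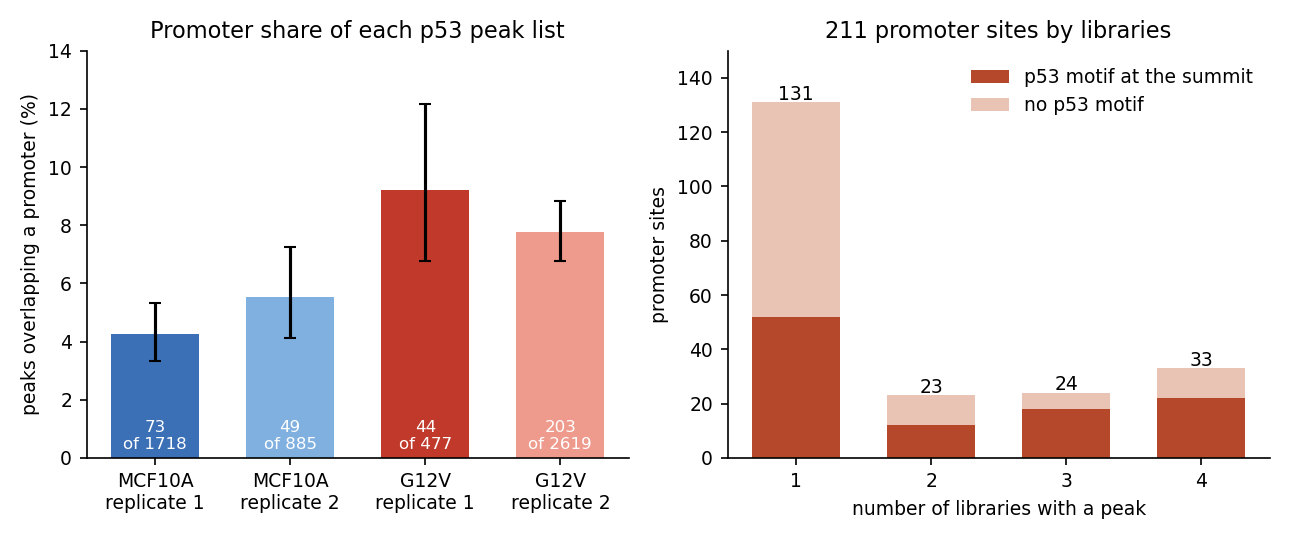
Left, share of each library's p53 peaks that overlapped a promoter (%, bars with 95% exact binomial intervals, counts printed in the bars). Right, number of promoter sites by how many of the 4 libraries had a peak there, split by whether the p53 motif was found at the summit. Both G12V bars are higher than both MCF10A bars, and 131 of the 211 promoter sites were seen in 1 library.

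Most promoter sites were seen once. Of the 211 sites, 131 (62.1%) had a peak in 1 library, 23 in 2, 24 in 3 and 33 (15.6%) in all 4. Among distal sites 47.4% had a peak in 1 library, so promoter sites were also more often single-library calls. G12V replicate 2 had a peak at 203 of the 211 sites, and 124 sites were called in it alone, whereas MCF10A replicate 1 alone gave 7 and the other libraries none. Over all p53 sites 1148 were called in G12V replicate 2 alone, of which promoters held 10.8%. For MCF10A replicate 1 alone it was 259, of which promoters held 2.70%. Without G12V replicate 2, 81 promoter sites remained in the merged lists. The 33 sites of all 4 libraries compare with 11.1% of all 2980 p53 sites that were called in all 4, and with 299 of 2769 distal sites (10.8%). The difference between promoter and distal sites was 4.84 percentage points, with a two-sided Fisher exact p of 0.0402 and an adjusted p of 0.0536. It turned to -2.17 points without G12V replicate 1, when 49 of 211 promoter sites and 702 of 2765 distal sites were in all 3 remaining lists. It grew to 21.1 points without G12V replicate 2, with 31 of 81 against 301 of 1751. Fisher tests here take sites as the units and carry no error between cultures.

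The strongest promoter sites belonged to genes that have long been tied to p53. The fold enrichment, the ratio of reads at the summit to the local background, is given in the order MCF10A replicates 1 and 2 and G12V replicates 1 and 2, and it can be ranked only within a library. CDKN1A, whose product p21 stops the cell cycle, had 37.3, 19.2, 26.1 and 76.8. Its site was the top ranked peak of G12V replicate 2 and ranked 9 of 477 in G12V replicate 1, but 21 and 58 in the MCF10A lists. A separate CDKN1A site 826 bp downstream of the nearest coding start, also called in all 4 libraries, had 16.7, 10.6, 8.27 and 33.0. The summit of this second site was at -1398 bp from the canonical start, thus upstream of it. The CDKN1A promoters held 4 sites in total, and the remaining ones are not described. MDM2, the ubiquitin ligase that degrades p53, had 34.6, 11.4, 29.2 and 65.1, and ranked 25 of 1718, 232 of 885, 6 of 477 and 7 of 2619. RPS27L, a ribosomal protein paralog, had 25.1, 22.0, 34.9 and 66.8 and ranked 5 or better in both G12V lists.

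The next leading sites are given by gene. PHLDA3, a repressor of the kinase Akt, had 25.1, 19.4, 31.0 and 26.0, which made it rank 5 in G12V replicate 1 but 178 in G12V replicate 2. Its local background, solved from fold and p-value, was 1.72 times the genome-wide rate in G12V replicate 1 and 3.76 times in G12V replicate 2. AEN, an apoptosis-enhancing nuclease, had 18.9, 14.7, 20.4 and 35.2. SPATA18, which takes part in mitochondrial quality control, had 14.6, 14.2, 9.20 and 30.6. PLK3, a stress-responsive polo-like kinase, had 17.6, 11.1, 23.5 and 40. GDF15, a secreted stress cytokine, had 16.7, 10.7, 14.1 and 28.7 at a site whose summit was at -12190 bp from its canonical start. Another GDF15 site, with its summit 54 bp downstream of the canonical start, was called in G12V replicate 2 alone at 12.2. That site held a p53 motif and overlapped a CTCF peak. At the leading sites given here G12V replicate 2 gave the highest value except at PHLDA3, so the raw values cannot be read across libraries.

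The other leading sites covered repair, translation and membrane genes. DDB2, which recognizes UV lesions for nucleotide excision repair, had 19.3, 16.1, 7.29 and 35.1, and was the leading site with the poorest rank in G12V replicate 1, at 329 of 477. Its local background in that library, solved from fold and p-value, was 4.41 times the genome-wide rate. RPS19, a protein of the small ribosomal subunit, had 19.4, 14.1, 17.9 and 24.9. TMEM30A, a subunit of phospholipid flippases, had 23.0, 13.6, 11.2 and 26.6 at a site 12444 bp downstream of its canonical start. TRIM22, an interferon-inducible ubiquitin ligase, had 14.8, 12.2, 11.6 and 26.8. PTCHD4, a patched-domain protein, had 13.3, 8.31, 11.9 and 40.2, and CHD9NB had 13.8, 10.7, 12.7 and 34.2. These complete the 15 sites of all 4 libraries with the smallest sum of ranks.

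**Figure D2:**
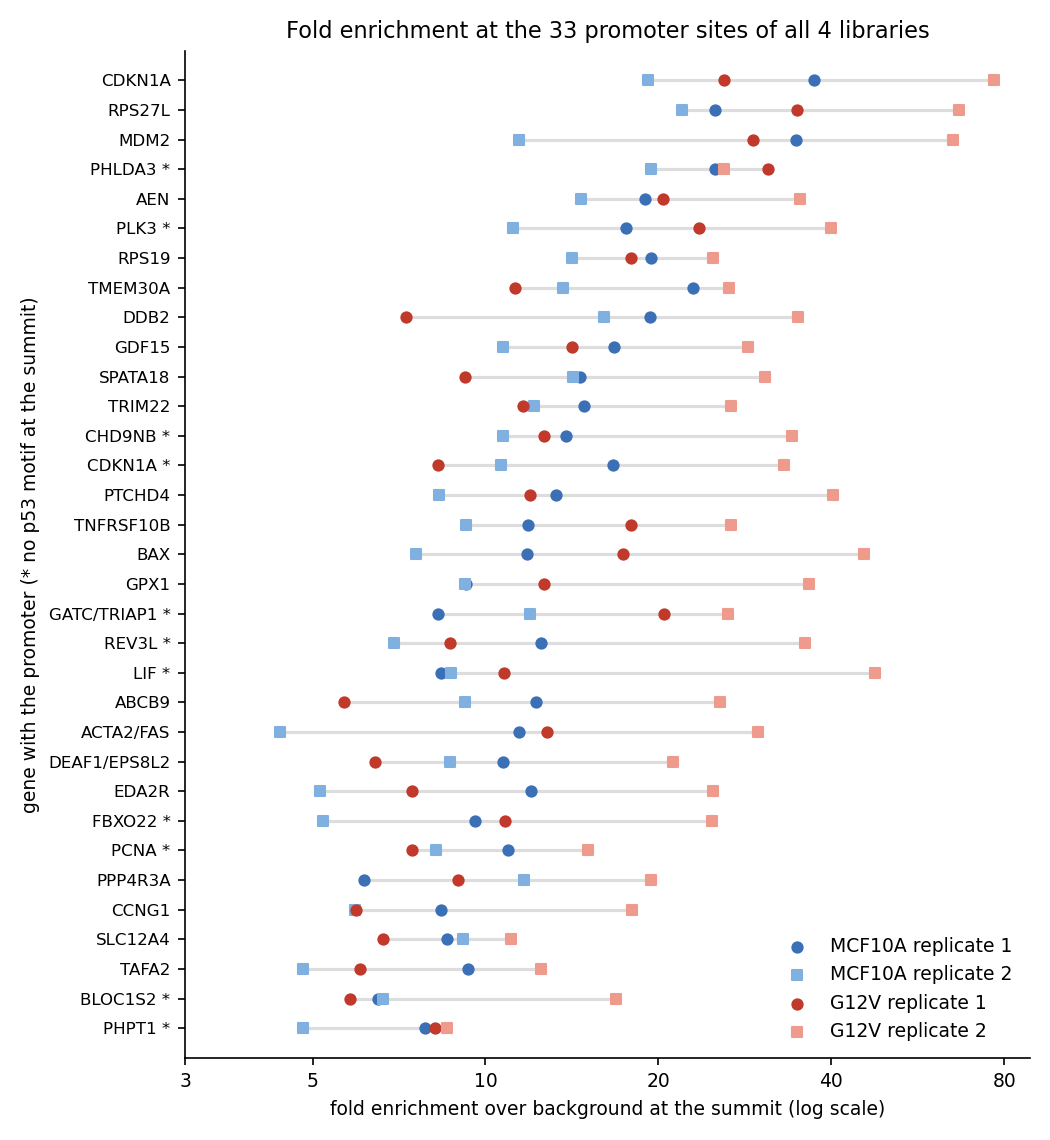
Fold enrichment over local background (log axis) at the 33 promoter sites called in all 4 libraries, 1 row per site with the genes whose promoter it overlaps, ordered by the sum of the within-list ranks. Points are libraries, grey lines span them, and a star marks sites without a p53 motif at the summit. G12V replicate 2 is usually the right-most point, CDKN1A reaches 76.8 there, and 11 of the 33 sites carry a star.

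Established p53 target genes were gathered in 6 lists by role, 59 genes in all. Of these, 40 (67.8%) had a promoter site and 16 (27.1%) had a promoter site called in all 4 libraries. Over all 19833 protein-coding genes, 1.13% had a promoter site and 0.176% had a promoter site of all 4 libraries. The lists were drawn from genes known as p53 targets, many of them through binding in other cells, and with earlier results of these data known, so the counts describe the promoters and are no independent evidence. For 14 of the 40 genes the only promoter site was called in G12V replicate 2 alone. Without that library 26 of the 59 genes had a promoter site, where 0.439% of all protein-coding genes did. A p53 motif at the summit was found for 23 of the 40 genes.

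Apoptosis and death receptor genes had a promoter site at 15 of 17 genes, of which 6 were called in all 4 libraries and 5 in G12V replicate 2 alone. BAX, the pore-forming effector of mitochondrial apoptosis, had folds of 11.8, 7.56, 17.4 and 45.7 in the library order used above. FAS, a death receptor, had 11.5, 4.39, 12.8 and 29.9 at a site that also overlaps a promoter of ACTA2. TNFRSF10B, a receptor of the ligand TRAIL, had 11.8, 9.23, 17.9 and 26.7, and EDA2R, an ectodysplasin receptor, had 12.01, 5.15, 7.44 and 24.9. Within the lists BAX ranked 536 of 1718 and 555 of 885 in MCF10A and 55 of 477 and 23 of 2619 in G12V.

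BBC3, which encodes the BH3-only protein PUMA, had a pair of sites. The site with its summit at -179 bp from a coding start had 7.99 in MCF10A replicate 1, 12.8 in G12V replicate 1 and 33.1 in G12V replicate 2, with no peak in MCF10A replicate 2. The site with its summit at 188 bp had no peak in MCF10A replicate 1 and folds of 5.11, 9.71 and 12.9 in the others. TNFRSF10D, a decoy receptor, was called in both MCF10A libraries (8.68 and 4.34) and in G12V replicate 2 (12.8). PIDD1, a death-domain adaptor, was called in MCF10A replicate 1 and G12V replicate 2, with 7.07 and 7.31. PMAIP1 (NOXA, fold 16.1), TP53INP1 (15.4), TNFRSF10A (8.07), APAF1 (7.98) and TP53I3 (6.63) were called in G12V replicate 2 alone, and TNFRSF10C (6.93) in MCF10A replicate 1 alone. The TP53INP1 site also overlaps a promoter of NDUFAF6, and the APAF1 site one of IKBIP. No promoter site was found at TP53AIP1 or PERP.

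Feedback regulators had a promoter site at 4 of 5 genes, 2 of them in all 4 libraries, MDM2 and CCNG1. MDM4, the MDM2 partner that inhibits p53, was called in MCF10A at 11.1 and 11.3 and in G12V replicate 2 at 5.48, with no peak in G12V replicate 1. CCNG1, cyclin G1, had 8.36, 5.93, 5.95 and 18.0, and PPM1D, a phosphatase that turns off the damage response, was called in G12V replicate 2 alone at 11.2. RCHY1 had none. DNA repair genes had 4 of 5, with DDB2 and PCNA in all 4 libraries, XPC (15.2) in G12V replicate 2 alone and POLH in both G12V libraries. PCNA, the sliding clamp of DNA replication, had 10.9, 8.21, 7.44 and 15.1. The XPC site also overlaps a promoter of LSM3. RRM2B had no promoter site.

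Cell cycle and growth arrest genes had 5 of 9, of which CDKN1A, PLK3 and PHLDA3 were called in all 4 libraries. BTG2, an antiproliferative gene, was called in G12V replicate 2 alone at 6.33, and no promoter site was found at GADD45A, PLK2, SFN or ZMAT3. Metabolism and autophagy genes had 7 of 10, of which only SPATA18 was called in all 4 libraries. SESN1 (7.37 and 17.3) and TIGAR (5.08 and 8.53) were called in MCF10A replicate 1 and G12V replicate 2, and FDXR (8.91), DRAM1 (6.56), ACER2 (5.00) and PRKAB1 (4.82) in G12V replicate 2 alone. The remaining list had 5 of 13, among them CYFIP2 (6.98) in G12V replicate 2 alone and ABCA12 in MCF10A replicate 1 (9.08) and G12V replicate 2 (20.8). GPX1, a glutathione peroxidase that is in none of the lists, was called in all 4 libraries with 9.24, 9.20, 12.7 and 36.6.

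Sites at these genes were called in all 4 libraries more often than other promoter sites. Of the 45 promoter sites at established targets 17 (37.8%) were of all 4 libraries, against 16 of 166 (9.64%) at other genes. The share with a p53 motif was 53.3% against 48.2%. Both are descriptions, since established targets are known for strong binding.

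Genes repressed through p21 and the DREAM complex had no promoter site (0 of 15), nor did the AP-1 family (0 of 10) or the feedback genes of the RAS-MAPK pathway (0 of 12). With 1.13% of all protein-coding genes at a promoter site, lists of this size would mostly have none, so these counts are no result about the groups. Epithelial adhesion and keratin genes had 4 of 17. This list includes SERPINB5, EPS8L2 and other genes that the paper measured by PCR. The paper describes its PCR genes as lowered after transformation, with a p53 motif in regions that lost accessibility. The count is thus no independent evidence. SERPINB5, which encodes maspin, was called in both G12V libraries at 7.95 and 13.9. KRT17, a keratin of basal epithelium, was called in MCF10A replicate 1 alone at 11.5, LAMA3, a laminin chain, in the same library at 7.07, and EPS8L2, an actin-remodelling adaptor, in all 4 libraries (10.7, 8.69, 6.42 and 21.2). The EPS8L2 site also overlaps a promoter of DEAF1. S100A2, a calcium-binding protein of basal epithelium that is in none of the lists, had the smallest sum of ranks among the promoter sites of 3 libraries, with 13.2 and 13.6 in MCF10A and 18.3 in G12V replicate 2. It was chosen after its values were seen.

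Sites called in both replicates of 1 cell type and in neither of the other were counted next. Called in both MCF10A libraries and neither G12V library was 1 promoter site, at GASK1B, where 2.18% of all p53 sites (65 of 2980) had this pattern. Its folds were 11.8 and 6.25. Called in both G12V libraries and neither MCF10A library were 7 promoter sites, where 1.41% of all p53 sites (42 of 2980) had this pattern, so that promoters held 16.7% of the 42 and 1.54% of the 65. The strongest was at E2F7, an E2F family repressor of cell cycle genes, with 11.2 and 27.7. POLH, a translesion DNA polymerase that shares its promoter site with XPO5, had 8.18 and 17.9, and EML2, a microtubule-associated protein, had 7.15 and 14.8. The others were SERPINB5, MOB3A (7.56 and 12.5), HNRNPUL1 (7.95 and 7.64) and LRP1 (6.64 and 7.66), an endocytic receptor. Of the 7 sites, 3 had a p53 motif, those at EML2, MOB3A and LRP1.

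With single libraries included, 131 promoter sites were seen in G12V only, 8 in MCF10A only and 72 in both cell types. A motif was found at 38.2% of the G12V-only promoter sites, at 75% of the MCF10A-only ones (6 of 8) and at 66.7% of those in both. At distal sites the shares were 57.5%, 70.8% and 83.7%, so G12V-only sites held it least often there too. Of the 131 sites 124 rest on G12V replicate 2 alone. The best ranked of these single-library sites were at APOBEC3H, a cytidine deaminase (fold 21.5, rank 272), PCNP (17.4, rank 425) and PMAIP1 (16.1, rank 486). A weak peak at the promoter of HRAS itself, without a p53 motif, was also called in G12V replicate 2 alone, with a fold of 5.42 and rank 2203 of 2619. It was chosen for its name after the values were seen.

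The p53 motif was less frequent at promoter sites than at distal sites. It was searched as 2 adjacent decamers with the core C and G intact and at most 3 other mismatches, in a window of 150 bp centred on the summit of the site's strongest peak. It was present at 104 of 211 promoter sites, 49.3% (42.4% to 56.2%), and at 1994 of 2769 distal sites, 72.0% (70.3% to 73.7%). The difference of -22.7 percentage points had a two-sided Fisher exact p adjusted by Benjamini-Hochberg over 4 share comparisons of 9.70e-11. Among windows of the same length at 78577 coding start sites 0.518% held the motif. Windows placed 2 kb to either side of the promoter summits held it at 2.37% and 0.47%.

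The lower share was found in each library. Promoter and distal peaks had the motif at 71.2% and 81.2% in MCF10A replicate 1 and at 69.4% and 82.7% in MCF10A replicate 2. In G12V replicate 1 it was 61.4% and 79.0%, and in G12V replicate 2 it was 48.3% and 71.8%. The mean over promoter peaks was 70.3% ± 1.3 (SD, n = 2) in MCF10A and 54.8% ± 9.3 (SD, n = 2) in G12V (exact permutation p = 0.333).

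Sites called in more libraries held the motif more often, so shares were also compared at equal numbers of libraries. Among sites of 1 library 39.7% of 131 promoter and 59.0% of 1313 distal sites held it (adjusted p = 1.06e-04, Fisher exact test). Among sites of 2 libraries it was 52.2% of 23 and 80.2% of 663 (adjusted p = 0.00376), and among sites of 3 it was 75% of 24 and 83.8% of 494 (adjusted p = 0.262). Among sites of all 4 libraries it was 66.7% of 33 and 91.3% of 299 (adjusted p = 5.08e-04). The comparison at 3 libraries did not pass the threshold, but passed it with at most 2 mismatches (adjusted p = 0.0102). That at 2 libraries was lost when up to 4 mismatches were allowed (adjusted p = 0.0863). With a library left out the groups hold other sites, since 2 then means 2 of 3 libraries and 3 means all that remain. The comparison at 2 of 3 passed only without MCF10A replicate 2. It did not pass without MCF10A replicate 1 (adjusted p = 0.0750), G12V replicate 1 (0.0664) or G12V replicate 2 (0.268), by the same Fisher exact test. The comparison at all 3 remaining libraries passed whichever library was left out (Fisher exact test, adjusted p from 8.67e-05 to 0.00973).

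**Figure D3:**
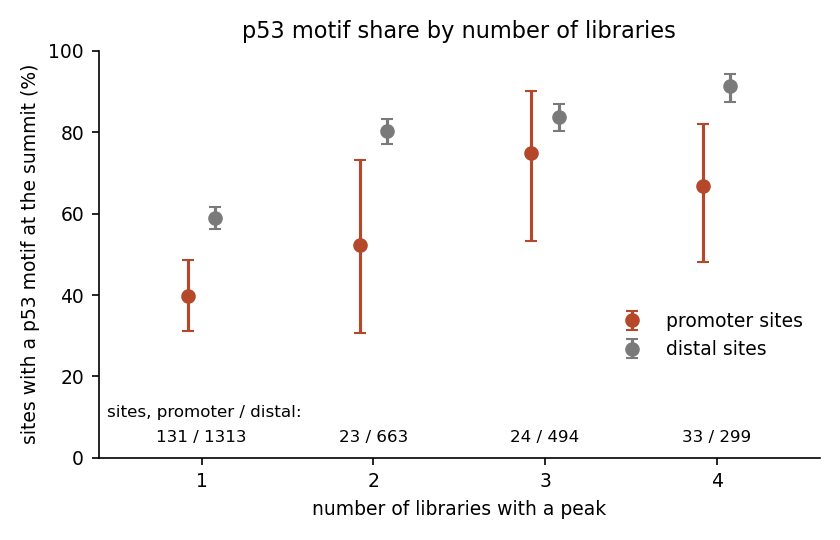
Share of sites with a p53 motif at the summit (%, points with 95% exact binomial intervals) against the number of libraries with a peak, for promoter and distal sites, with the numbers of sites printed below. The promoter share is the lower of both at each number, from 39.7% against 59.0% at 1 library to 66.7% against 91.3% at 4.

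Promoter elements were also poorer matches. A match without any mismatch was present at 5 promoter sites (2.37%) and at 262 distal sites (9.46%), and a match with 1 mismatch at 7 (3.32%) and 521 (18.8%). With 3 mismatches the order turned, at 24.2% of promoter and 15.9% of distal sites. Where the motif was present its centre lay a median of 16 bp from the summit at promoter sites and 13 bp at distal sites. It was within 25 bp of the summit at 75% of promoter and 75.9% of distal sites with a motif, and at 19 of the 22 promoter sites of all 4 libraries.

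Among the 33 promoter sites of all 4 libraries, 11 had no motif at the summit, and none of the 11 had a match elsewhere in the merged site. The 6 with the smallest sum of ranks were PHLDA3, PLK3, CHD9NB, the CDKN1A site at -1398 bp from the canonical start, the site shared by TRIAP1 and GATC, and REV3L. TRIAP1, an inhibitor of apoptosis that p53 is known to induce, had 8.25, 11.9, 20.4 and 26.4, and REV3L, the catalytic subunit of polymerase zeta, had 12.5, 6.94, 8.69 and 35.9. At TRIAP1 and REV3L the best match had 4 mismatches, and at PHLDA3 no match with an intact core was in the window. The other 5 were at LIF, a cytokine of the interleukin-6 family (8.36, 8.70, 10.8 and 47.6), FBXO22, PCNA, BLOC1S2 and PHPT1. No match says only that this pattern is not in the window.

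Sites without a motif were richer in GC. The median GC content of the 150 bp was 64.0% at the 107 promoter sites without and 58.7% at the 104 with a motif, against 48.0% at distal sites. CpG dinucleotides had a median of 12 and 5 per window at promoter sites without and with a motif and 1 at distal sites. In G12V replicate 2 the median rank percentile, where 100 is the strongest peak of a list, was 33.2 for promoter sites without a motif and 65.8 for those with one. In MCF10A replicate 1 it was 46.4 and 64.3. The gap was smaller in MCF10A replicate 2 (55.0 and 58.0) and in G12V replicate 1 (49.9 and 56.8). Distal sites without a motif also ranked below those with one, for example at 36.8 and 55.4 in G12V replicate 2.

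The rule keeps sites near a coding start, so closeness to it is largely fixed by the choice of members and is given as a description. The median position was -32 bp from the nearest coding start, with quartiles at -264.5 and 163 bp, and 115 of 211 summits (54.5%) lay within 250 bp. Upstream were 122 and downstream 89. Summits of the 33 sites of all 4 libraries had a median of 14 bp downstream. The motif was most frequent 250 to 500 bp downstream, at 20 of 28 sites (71.4%), and was found at 18 of 47 (38.3%) in the first 250 bp downstream. By annotation 99 summits lay in introns of coding transcripts, 39 in untranslated exons, 19 in coding exons and 54 outside coding transcripts.

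The promoter of a canonical transcript was overlapped by 146 sites (69.2%), while 64 lay only at other coding starts and 1, at FAS, belonged to a gene whose canonical start was not mapped to hg19. The motif was present at 43.8% of the canonical and 60.9% of the other sites. Sites overlapping promoters of more than 1 gene numbered 21, of which 18 had start sites on both strands. Members nearest the edge of the promoter rule were at MOB3A (18 bp of overlap), MUC2 (38 bp) and MT2A (39 bp). Sites just outside it were nearest to ZMIZ2 (gap of 10 bp, folds of 7.15 and 10.1 in both G12V libraries), PLD5 (11 bp, 5.50 in G12V replicate 2) and AK3 (22 bp, in 3 libraries). MUC2, a gel-forming mucin, had 12.01, 9.63 and 9.99 in 3 libraries, and the edge site of MT2A, a metallothionein, had 5.40 in G12V replicate 2.

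**Figure D4:**
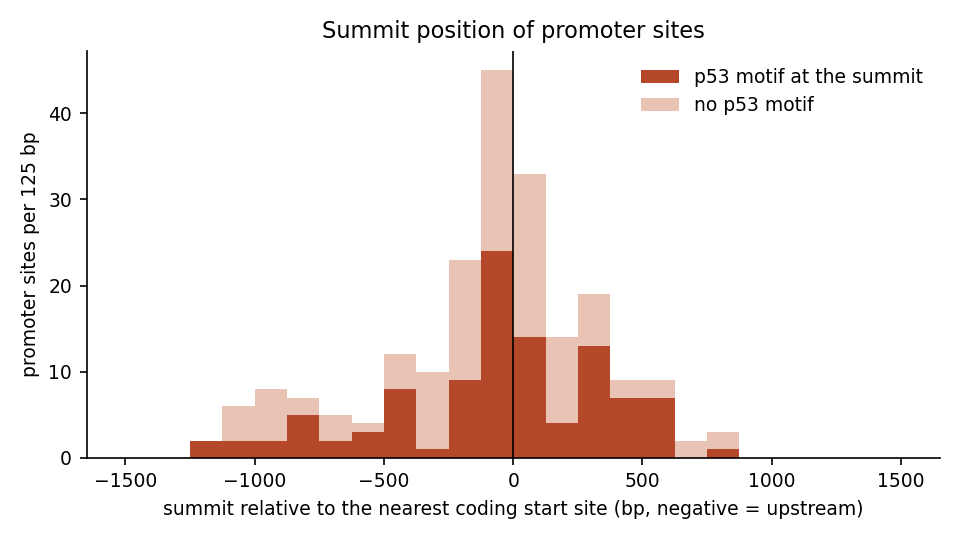
Number of promoter sites per 125 bp against the distance of the summit from the nearest coding start site (bp, upstream negative), split by whether the p53 motif was found at the summit. The 211 summits peak at the start site, with a median of -32 bp, and the bars 250 to 500 bp downstream are mostly of sites with a motif.

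Motifs of other promoter factors were also counted. The GC box GGGCGG was present in the summit window of 28.4% of promoter sites, 4.15% of distal sites and 36.8% of windows at all coding start sites (both strands for every motif). The ETS motif CCGGAAG was present at 2.84%, 0.758% and 7.99%, the CCAAT box CCAAT at 9.95%, 14.7% and 17.1%, the CRE TGACGTCA at 0.948%, 0.108% and 1.24%, and the E box CACGTG at 3.32%, 2.06% and 4.05%. The AP-1 motif TGACTCA, bound by FOS and JUN proteins downstream of RAS, was present at 12 of 211 promoter sites, 5.69% (2.97% to 9.72%), and 187 of 2769 distal sites, 6.75% (5.85% to 7.75%). The difference of -1.07 percentage points had an adjusted p of 0.668 (Fisher exact test) and changed sign with other promoter definitions. Windows at all coding start sites held it at 1.86%.

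CTCF, a zinc-finger protein of insulators and domain borders, was measured in the same cell types in 4 other libraries. The paper describes Nutlin-3a treatment for the p53 immunoprecipitation and none for that of CTCF. The p53 and CTCF peaks may thus not stem from cells treated alike. A CTCF peak of any of them overlapped 16 of 211 promoter sites, 7.58% (4.40% to 12.02%), and 76 of 2769 distal sites, 2.74% (2.17% to 3.42%). The difference of 4.84 percentage points had an adjusted p of 0.00113 (Fisher exact test). When the sites were moved by 10 kb the shares were 1.42% and 0.758%. The call was lost when the CTCF site had to be present in both replicates of a cell type, with 5 of 211 against 46 of 2769 (adjusted p = 0.540), and when the CTCF peak had to cover at least 50% of the p53 site (adjusted p = 0.0681), and with lists of equal length, with 3 of 62 against 26 of 814 (adjusted p = 0.516). The sites with most p53 libraries were PLK3 and TAFA2, a chemokine-like secreted protein (9.33, 4.80, 6.04 and 12.5), both of all 4, and TNFRSF10D, of 3. A CTCF overlap was seen at 10.3% of promoter sites without and 4.81% of those with a p53 motif.

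Promoter peaks ranked above distal peaks in each list. The median rank percentile was 63.5 against 49.5 in MCF10A replicate 1, 56.5 against 49.8 in MCF10A replicate 2, 59.5 against 49.7 in G12V replicate 1 and 52.8 against 49.9 in G12V replicate 2. The mean difference was 8.37 points, and the exact two-sided sign-flip permutation test over 4 libraries gave p = 0.125, the smallest it allows. The local background of a peak over the genome-wide rate of its library differed by -0.07 on average between promoter and distal peaks (exact permutation p = 0.75), with differences of 0, -0.04, -0.34 and 0.10 in the 4 libraries.

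Enrichment was compared between the cell types at the 332 sites called in all 4 libraries, as log2 fold enrichment centred on each library's median over these sites. Promoter sites stood lower than distal sites in MCF10A and higher in G12V. The median centred value of the 33 promoter sites minus that of the 299 distal sites was -0.60 and -0.28 in the MCF10A libraries and 0.27 and 0.17 in the G12V libraries. The mean was -0.44 ± 0.22 (SD, n = 2) in MCF10A and 0.22 ± 0.08 (SD, n = 2) in G12V, a difference of 0.66 on the log2 scale, with an exact permutation p of 0.333, the smallest possible. The comparison was added after the values were seen, and the difference was 0.50 to 0.82 when any single library was left out.

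Site by site, both G12V values were above both MCF10A values at 18 of 33 promoter sites (54.5%), where 26.5% of all 332 sites had this order. Both were below at 1 promoter site (3.03%), TMEM30A, where 20.8% of all sites had that order. The median difference of G12V minus MCF10A was 0.52 over promoter sites and -0.02 over distal sites. It was above 0 at 30 of 33 promoter sites, the exceptions being DDB2 (-0.26), SLC12A4 (-0.16) and TMEM30A (-0.15), and at 138 of 299 distal sites. With the pileup solved from fold and p-value in place of fold enrichment, it was above 0 at 29 promoter and 137 distal sites. The exceptions then changed in part, with DDB2 at 0.60 and the CDKN1A site 826 bp downstream of the nearest coding start at -0.14. With limma's test, 11 promoter sites had an unadjusted p under 0.05 and a higher value in G12V, where 11.7% of all sites did, and no promoter site had a lower one, where 8.13% of all sites did.

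After Benjamini-Hochberg adjustment over all 332 sites limma called 2 promoter sites higher in G12V, where 1.51% of all sites were, and no promoter site lower, where 2.11% of all sites were. BAX had centred values of -0.60 and -0.56 in MCF10A and 0.88 and 0.88 in G12V, a difference of 1.46 (SE 0.43, adjusted p = 0.0204, limma). FAS had -0.64 and -1.34 in MCF10A and 0.44 and 0.26 in G12V, a difference of 1.34 (SE 0.43, adjusted p = 0.0476, limma). The fit gave all 33 promoter sites this same SE, so it is not the replicate spread of BAX or FAS alone. Both calls rest on all 4 libraries, since limma's adjusted p was 0.0733 to 0.354 for BAX and 0.103 to 0.455 for FAS with any single library left out. Both were lost with replicate number as a block (adjusted p = 0.272 for each) and without centring (adjusted p = 0.993 for each). Both held with quantile normalisation (limma's adjusted p = 0.0294 and 0.0489) and with recovered pileup (0.0243 and 0.0331), where 13 promoter sites were called. The BAX difference itself was 1.44 to 1.58 in the settings that lost its call. The next largest differences, not past the threshold, were 1.29 at LIF, 1.11 at the TRIAP1 site, 1.11 at GPX1, 1.09 at FBXO22, 1.02 at PLK3 and 1.01 at MDM2, with limma's adjusted p from 0.0554 to 0.148.

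GC content and fragment length moved with this difference. Of the 33 promoter sites 21 had a window of at least 60% GC, with a median difference of 0.57 and 20 above 0. The 26 distal sites of at least 60% GC had a median of 0.38, with 19 above 0, whereas the 138 distal sites of 40 to 50% GC had -0.12, with 53 above 0. The 5 promoter sites of 40 to 50% GC had a median of 0.28 and the 7 of 50 to 60% GC had 0.48. The caller's fragment length was longer in both G12V libraries than in both MCF10A libraries, so it cannot be told apart from the cell type, and its part in the result was not tested.

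**Figure D5:**
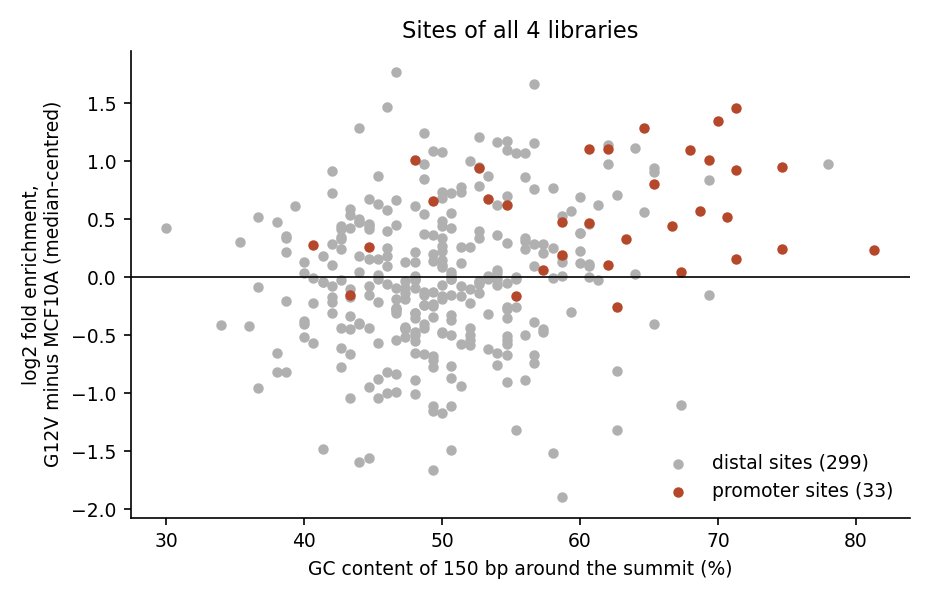
Difference in median-centred log2 fold enrichment between G12V and MCF10A (mean of 2 libraries each) against the GC content of the 150 bp around the summit (%), for the 33 promoter and 299 distal sites called in all 4 libraries. Promoter sites lie mostly above 0 (30 of 33) and mostly at 60% GC or more (21 of 33), and the distal points at high GC also lie more often above 0 (19 of 26) than below.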

How the data were processed

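p53 ChIP-seq of 2 MCF10A and 2 G12V libraries was used, with 4 CTCF libraries of the same cell types, for which no Nutlin-3a treatment is described. The authors aligned reads to hg19 with Bowtie, kept unique reads and called peaks with MACS at default parameters. The study pooled replicates for its own analysis, whereas the deposited lists are per library. Each deposited list gives the fold enrichment that the authors' peak caller computed (a ratio, summit reads over background). It also has a −log10 p, a −log10 q (at least 1.31 in the p53 lists) and an integer score made from the deposited −log10 q. No read counts were used. The values of 1 established target, the sequence of 1 response element and the remaining CDKN1A promoter sites are left out. Here peaks were merged, annotated with GENCODE release 44 mapped to GRCh37 and searched for motifs with pysam 0.24.0, and the pileup and depth behind each peak were solved from its fold and p-value for a genome of 2.7 Gb, which succeeded for 100% of peaks. This step, the motif search and the limma test were checked on simulated data.

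Shares of sites were compared by two-sided Fisher exact tests (scipy 1.17.1) with Benjamini-Hochberg adjustment over 4 shares or 4 strata, values per library by exact permutation tests, and enrichment by limma 3.58.1 in R 4.3.3. An adjusted p under 0.05 was called. Intervals are exact 95% binomial intervals and, like the depths, cover counting error only. Groups and replicate numbers came from the titles. Permutation and limma p-values measure the spread between these libraries, whereas Fisher p-values take sites as the units and carry no error between libraries. The promoter sites, the gene lists and the tests were chosen with earlier results of these data known. Named sites were the 15 leading ones of all 4 libraries, those of 1 cell type in both replicates, those at established targets, the 6 leading ones without a motif, 3 at CTCF peaks, those called by limma and the 3 best ranked of a single library, and any other name is said to be chosen afterwards or is given as a member of a list, an edge case or a next largest difference. Alternatives were other promoter definitions, list lengths, thresholds, motif settings, CTCF rules, scalings, the replicate block and each library left out.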

Additional observations from a re-analysis of the deposited data

How the results depend on the processing

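For results that are counts, a value close to the main count was taken as kept. Of 170 recomputed values for 19 results, 119 were kept in this sense or kept their direction and their side of the threshold. The motif difference between promoter and distal sites did so in all 15 alternatives run, as did the promoter share of G12V over MCF10A in all 10 and the rank difference in all 9, although the last 2 cannot pass the threshold by design. The causes of the changes below were not tested.

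The AP-1 difference reversed to 0.40 points with every transcript, to 2.01 with 5000 bp either side and to 3.29 with equal lists. The share called in all libraries passed the threshold with every transcript (4.81 points), without MCF10A replicate 1 (5.16, adjusted p = 0.0476, Fisher exact test) and without G12V replicate 2 (21.1, adjusted p = 4.37e-05), and ranged from -2.17 to 21.1 with a library left out. The CTCF difference lost its call with equal lists (1.64 points), with CTCF in both replicates (0.71) and with an overlap of at least 50% (2.17). With a library left out, the motif difference at 2 of 3 libraries ranged from -24.1 to -8.54, and at all 3 remaining libraries from -27.5 to -17.9. With all libraries kept it was -16.1 at 2 with 4 mismatches, which lost the call. It was -26.0 at 3 with 2 mismatches, which passed the threshold. The local background difference ranged from -0.128 to 0.0206 and the log2 ratio of promoter peaks from -0.47 to 1.73 with a library left out. Promoter sites numbered 553 with 5000 bp either side, 62 with equal lists and 81 to 211 with a library left out, and established targets 22 and 26 to 40 in the last 2.

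limma called 12 sites, and 0 without centring (5 at an unadjusted p under 0.05), 0 with the replicate block (57), 64 from recovered pileup, of which 13 were promoter sites, and 0 to 11 with a library left out, the zeros being without MCF10A replicate 1 (37) and replicate 2 (31). A lone library is then assumed to vary like the others. Equal replicate numbers are not tied together by the labels, and deviations of equal numbers correlated at 0.02 over 332 sites. With the replicate block the share difference was 3.59 points and the log2 ratio of promoter peaks 0.66. G12V replicate 1 had the lowest depth, and a site without a peak there was not detected rather than shown absent.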
